A study of Mus musculus with 2 samples.

Results

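The genes described here are the receptors of the epidermal growth factor (EGF) family and their ligands, 10 genes with 12 probes of the 39429 probes on the array. They comprise 7 ligand genes (Ereg, Areg, Hbegf, Tgfa, Btc, Epgn and Nrg1) and 3 receptor genes (Egfr, Erbb2 and Erbb3). Probes were taken by their gene name, and the brightest probe of a gene was used where there were several. The family was chosen by the high ratio of Ereg on these arrays, so the ratios of its genes are a description and carry no test. Ureters of wildtype NMRI mice were explanted at postnatal day 0 and cultured for 18 h. They received cyclopamine at 10 µM (an alkaloid that inhibits SMO, the transducer of the hedgehog signal) or solvent diluted 1 in 1000. RNA was pooled from several ureters for each channel of 2 two-colour oligonucleotide arrays. Replicate 1 carried female pools, with the control in the green and cyclopamine in the red channel, and replicate 2 carried male pools with the dyes swapped. Sex, pool and dye orientation therefore cannot be told apart. A source name in the labels gives IWP-2 in place of cyclopamine, whereas cyclopamine is named in the titles, the treatment entries and the protocol. The labels give DMF as the solvent and the study's methods give ethanol.

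EGF-family ligands are made as membrane-bound precursors, and metalloproteases release their soluble part. Epiregulin, amphiregulin, heparin-binding EGF, transforming growth factor alpha, betacellulin and epigen bind the receptor EGFR, and some of them also bind ERBB4, whereas neuregulin 1 binds ERBB3 and ERBB4. The receptors pair on binding and signal through RAS and the kinase ERK. ERBB2 has no known ligand of its own and acts as a partner, and ERBB3 has little kinase activity and needs one. In the urothelium, the epithelium that lines the ureter, EGFR signaling is known for its part in growth and repair.

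Each probe has 60 bases, and the opening 30 bases are shown for the 4 genes with the highest mean ratio in the family, so that the measured transcript can be found. Coordinates were taken from the annotation of the array (build mm9), which names no exon or UTR for them, and the letters are in lower case throughout, 5′ to 3′.
Ereg probe, chr5:91522553-91522612, plus strand: gatagtcatgtaccttgacatagtgaagga
Erbb3 probe, chr10:128006424-128006483, minus strand: gacaaccccgattactggcatagcaggctt
Tgfa probe, chr6:86224838-86224897, plus strand: tggacatacacagaaccaaaccatgagtta
Btc probe, chr5:91786948-91787007, minus strand: ggatccttgtacattttactttacaagaga

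Ereg, the epiregulin gene, was higher with cyclopamine on both arrays and was the only member past the study filter. On replicate 1 the intensity of its probe was 538 for control and 817 for cyclopamine. On replicate 2 it was 134 for control and 480 for cyclopamine. The log2 ratio of cyclopamine over control was 0.60 on replicate 1 and 1.84 on replicate 2, a mean of 1.22 ± 0.88 (SD, n = 2 arrays). These are a 1.52-fold and a 3.59-fold difference. The arrays were not on a common intensity scale, so that levels can be set against each other only within an array. Within each array the 4 spots of the probe lay close together, with log2 ratios from 0.57 to 0.65 on replicate 1 and from 1.83 to 1.87 on replicate 2. The spread between the arrays was thus far wider than that between spots, which are technical repeats. In pooled tissue, more cells of a type and more RNA per cell cannot be told apart.

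To pass the study filter, a gene needed control intensities above 100 on each array and a difference of 1.5-fold or more in a shared direction. It carries no p-value. The limits are those of the study, whose text gives them for genes with reduced expression. Here they were applied in both directions, on each array and to the brightest probe of each gene. The counts are not those the study reported, and its text makes no call of Ereg. Hhip, which the study lists as reduced, did not pass here, with log2 ratios of -0.31 and -1.99 on its brightest probe. The probe behind the study's larger average reduction of Hhip was not traced. Of the 13660 genes that met the intensity limit, 29 (0.212%) passed as higher and 87 (0.637%) as lower. Of the members, 9 of 10 met the intensity limit, 1 passed as higher and 0 as lower, and nothing is read from that count because the ratio of Ereg chose the family. Ereg ranked 2 among the 13660 genes by mean log2 ratio. Ereg lay just inside the fold limit on replicate 1, where 1.5-fold is 0.58 on the log2 scale. Outside the filter, Btc came nearest, with log2 ratios of 0.41 and 0.52 that were both below the limit, and Tgfa and Erbb3 were past it on replicate 1 but at 0.33 and 0.34 on replicate 2. Ereg no longer passed with another background correction (normexp, at an offset of 50 or of 10), with a control limit of 200 or with a fold limit of 2, while its mean log2 ratio ranged from 1.12 to 1.24 over the settings that use both arrays.

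**Figure D1:**
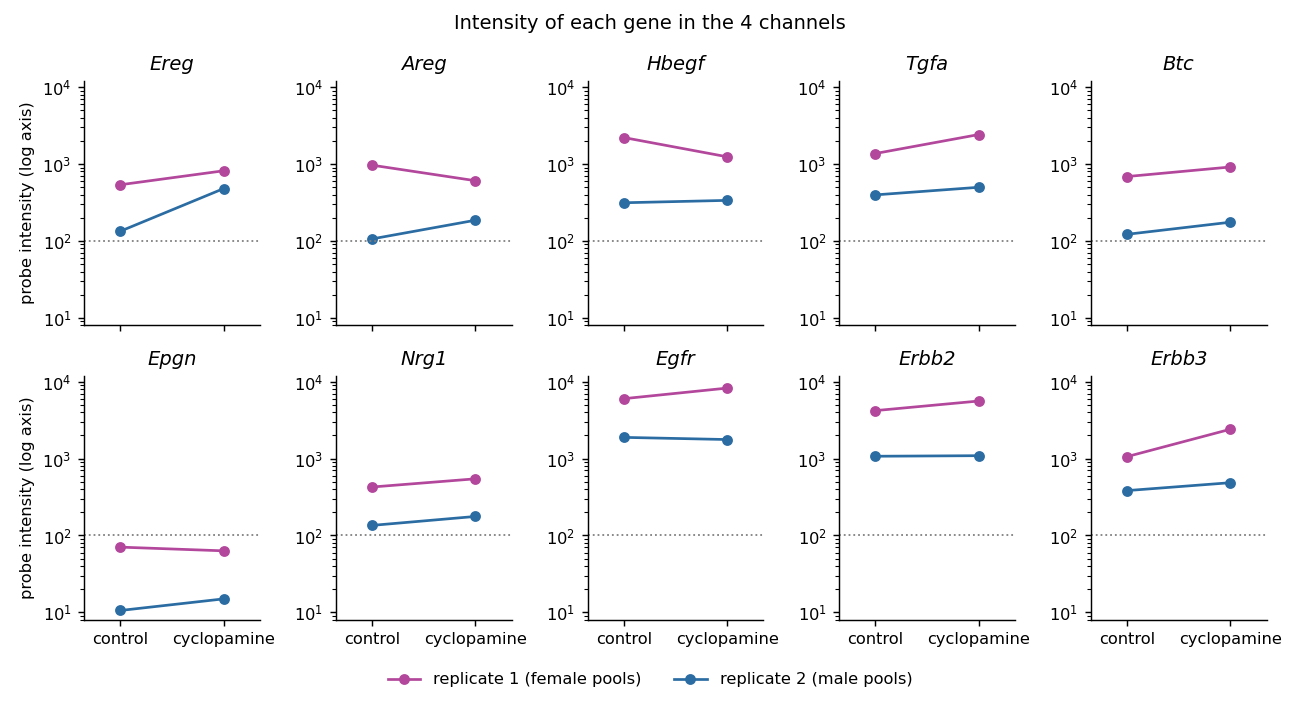
Intensity of the brightest probe of each gene (log axis) in the control and cyclopamine channels of replicate 1 (female pools, purple) and replicate 2 (male pools, blue); lines join the channels of an array and the dotted line marks the control limit of 100. The line of Ereg rises on both arrays, from 538 to 817 and from 134 to 480, while those of Areg run in opposite directions.

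Areg, the amphiregulin gene, lies beside Ereg and had opposite signs on the arrays. Its intensity was 966 for control and 606 for cyclopamine on replicate 1, and 106 and 186 on replicate 2. The log2 ratios were -0.67 and 0.81, with a mean of 0.07 ± 1.05 (SD, n = 2). The mean lies near 0 between values of opposite sign. Hbegf, which encodes heparin-binding EGF and lies on chromosome 18, had 2211 for control and 1242 for cyclopamine on replicate 1. On replicate 2 it had 314 and 337. Its log2 ratios of -0.83 and 0.10 gave a mean of -0.36 ± 0.66 (SD, n = 2), the only negative mean of the family. Epgn, the epigen gene, had 70.5 and 63.1 on replicate 1 and 10.6 and 15.0 on replicate 2, in each case control before cyclopamine. Its control intensity was under 100 on both arrays, although its probe was well above background in all 4 channels. The log2 ratios of Epgn were -0.16 and 0.50, and on replicate 2 its spots ranged from -0.19 to 0.86.

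Tgfa, Btc and Nrg1 were higher in the cyclopamine channel on both arrays. Tgfa, the gene of transforming growth factor alpha, had 1370 for control and 2418 for cyclopamine on replicate 1, and 397 and 498 on replicate 2. Its log2 ratios were 0.82 and 0.33, a mean of 0.57 ± 0.35 (SD, n = 2). Btc, the betacellulin gene, had 687 and 915 on replicate 1 and 122 and 175 on replicate 2. Its log2 ratios of 0.41 and 0.52 lay close together, with a mean of 0.47 ± 0.08 (SD, n = 2). Nrg1, the neuregulin 1 gene, had 427 and 545 on replicate 1 and 135 and 177 on replicate 2. The log2 ratios of Nrg1 were 0.35 and 0.39, with a mean of 0.37 ± 0.02 (SD, n = 2). Btc and Nrg1 were thus the members whose arrays differed least, both at less than the 1.5-fold limit, but with a trend on gene length removed from each array Nrg1 had 0.07 and 0.60.

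Of the receptor genes, Erbb3 had the widest ratio. Its probe had 1060 for control and 2407 for cyclopamine on replicate 1, a log2 ratio of 1.18 that was above that of Ereg on the same array. On replicate 2 it had 383 and 486, a log2 ratio of 0.34. The mean was 0.76 ± 0.60 (SD, n = 2), and Erbb3 ranked 34 among the 13660 genes. Erbb2 had 4203 and 5601 on replicate 1 and 1072 and 1090 on replicate 2. Its log2 ratios were 0.41 and 0.03, so that the channels of replicate 2 were nearly equal. Egfr, the receptor that epiregulin binds, was measured by 3 probes. The brightest had 6008 and 8249 on replicate 1 and 1886 and 1768 on replicate 2, with log2 ratios of 0.46 and -0.09. The other Egfr probes had log2 ratios of 0.26 and 0.10 on replicate 1 and of 0.00 and 0.04 on replicate 2. The Egfr probes thus differed in size on replicate 1 and lay near 0 on replicate 2.

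**Figure D2:**
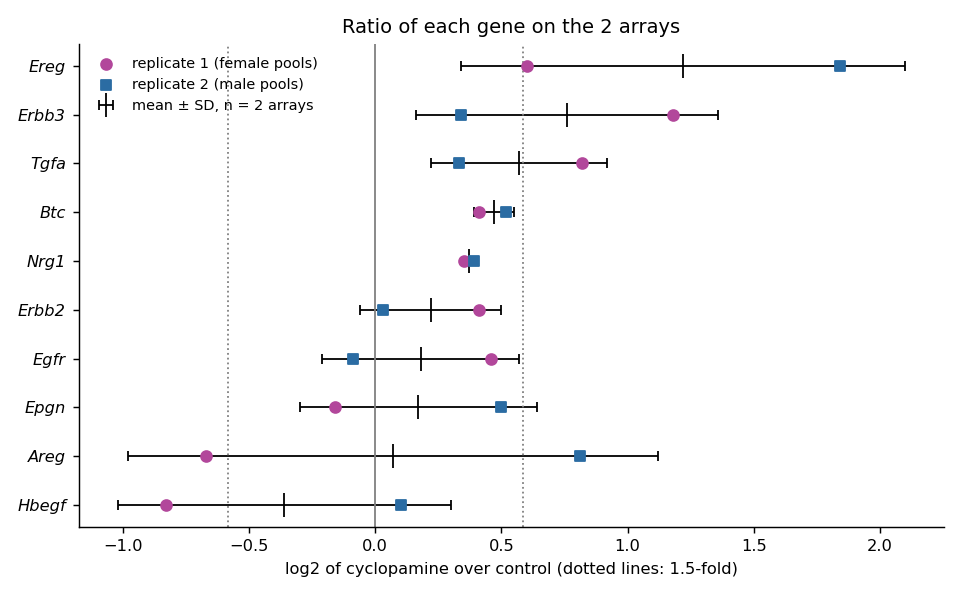
Log2 ratio of cyclopamine over control of each gene on replicate 1 (circles) and replicate 2 (squares), with the mean and SD over the 2 arrays in black and dotted lines at 1.5-fold. Only Ereg has both arrays past the upper line, at 0.60 and 1.84; Areg, Hbegf, Epgn and Egfr have their arrays on opposite sides of 0.

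Over the family, 6 of 10 genes were higher on both arrays, 0 were lower on both, and 4 had opposite signs. Over the 19397 tested genes, 28.6% were higher on both arrays and 42.4% had opposite signs. The median log2 ratio of the 10 genes was 0.41 on replicate 1 and 0.36 on replicate 2. The medians over all tested genes were -0.003 and -0.001. As Ereg and its family were picked from these ratios, the medians stand only as a description. A probe was tested where, for control or for cyclopamine, a share of 0.5 or more of its spots exceeded background clearly on each array, and all 10 members were well above background in every channel.

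**Figure D3:**
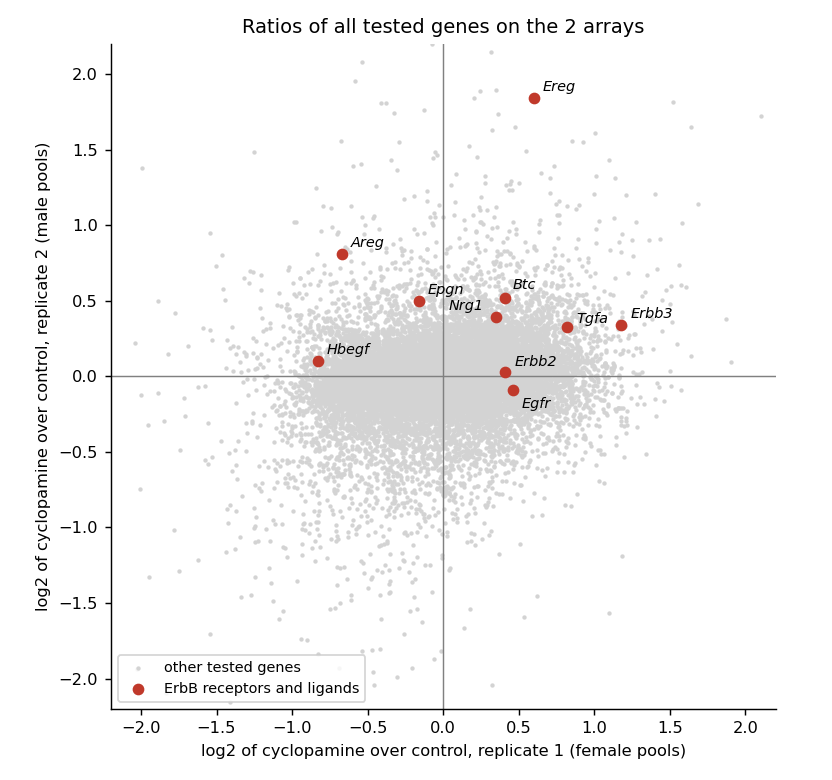
Log2 ratio of cyclopamine over control on replicate 1 (x axis) against replicate 2 (y axis) for the tested genes (grey) and the 10 family genes (red); 19 genes lie outside the axes. Ereg stands at 0.60 and 1.84, and 6 of the 10 genes are above 0 on both axes.

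The members differed in which array had the higher ratio, and the 4 shortest genes all had it on replicate 2. On replicate 1 the log2 ratio rose with the genomic length of the gene over all probes with a length (Spearman correlation 0.439 across 22468 probes, which are not independent replicates), and on replicate 2 it hardly did (0.035). The 4 members under 20 kb were Ereg (19.0 kb), Hbegf (10.9 kb), Areg (8.83 kb) and Epgn (7.70 kb), a limit set after their values were seen. All 4 had a lower log2 ratio on replicate 1 than on replicate 2, by a difference of -1.24 for Ereg, -0.94 for Hbegf, -1.48 for Areg and -0.66 for Epgn. Of the 7684 tested genes under 20 kb, 62.9% were lower on replicate 1, with a median difference of -0.13. Among the 6 longer members the difference ranged from -0.11 for Btc to 0.84 for Erbb3, beside a median of 0.19 over the 8332 longer tested genes. Erbb3 (22.1 kb) and Erbb2 (25.2 kb, 0.39) lay just over the length limit. Nrg1, the longest member (1080 kb), had a difference of -0.03. With the trend on gene length removed from each array, the log2 ratios of Ereg were 0.65 and 1.83 and those of Areg were -0.49 and 0.82. The differences were then -1.19 for Ereg, -0.80 for Hbegf, -1.32 for Areg and -0.48 for Epgn. Egfr then had 0.21 and -0.05, and Epgn had 0.03 and 0.52, which put 7 of 10 genes above 0 on both arrays and left 3 with opposite signs. The part of gene length in the ratios was otherwise not tested.

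Ereg lies in a cluster of ligand genes on chromosome 5, in the order Epgn, Ereg, Areg and Btc, with a row of chemokine genes on the side of Epgn (gene order from RefSeq, mouse assembly GRCm38.p6). RefSeq promoters of the same assembly, from 250 bases before to 50 after the start site, were on hand for 6 of the 10 members. They are shown for the 3 genes of the cluster among these, since the 4 genes of the cluster differed in their ratios. Ereg, Hbegf, Nrg1 and Erbb3 had no entry. Both strands were searched for the cAMP response element (CRE) TGACGTCA, its partial form TGACG, the AP-1 site TGANTCA and the GLI site GACCACCCA, and capitals mark every match. The CRE reads the same on both strands and holds the partial form on each.
Epgn promoter, chr5:91027267-91027566, plus strand: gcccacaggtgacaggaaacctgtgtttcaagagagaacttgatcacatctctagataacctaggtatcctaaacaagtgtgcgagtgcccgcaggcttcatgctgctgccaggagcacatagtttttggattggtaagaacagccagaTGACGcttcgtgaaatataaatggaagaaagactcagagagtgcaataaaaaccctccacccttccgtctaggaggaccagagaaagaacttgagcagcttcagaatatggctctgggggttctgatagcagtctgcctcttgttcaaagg
Areg promoter, chr5:91139349-91139648, plus strand: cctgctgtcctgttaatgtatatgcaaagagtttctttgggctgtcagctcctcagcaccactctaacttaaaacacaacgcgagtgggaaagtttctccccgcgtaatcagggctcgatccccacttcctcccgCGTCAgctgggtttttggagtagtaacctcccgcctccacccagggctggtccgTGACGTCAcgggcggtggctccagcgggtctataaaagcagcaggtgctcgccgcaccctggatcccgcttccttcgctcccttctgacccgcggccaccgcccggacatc
Btc promoter, chr5:91402945-91403244, minus strand: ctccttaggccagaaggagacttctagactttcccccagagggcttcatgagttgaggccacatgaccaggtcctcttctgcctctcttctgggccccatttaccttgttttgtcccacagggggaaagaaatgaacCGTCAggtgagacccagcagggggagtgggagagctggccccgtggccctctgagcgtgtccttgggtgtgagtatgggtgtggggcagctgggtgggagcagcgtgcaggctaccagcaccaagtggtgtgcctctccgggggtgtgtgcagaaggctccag

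The Areg promoter held the CRE at position -61 from the start site, counted at the left base of the match, and a further partial site at -115. The Epgn promoter held a partial site at -101 and the Btc promoter at -113. Of all 32851 promoters of this length in the table, 1.79% held the CRE and 20.8% the partial form. Of the 6 promoters of the family, 4 held the partial form (Areg, Btc, Epgn and Erbb2). None of the 6 held the AP-1 letters, found in 7.81% of all promoters, or the GLI letters, found in 0.253%. A match is a description of the letters in this window only.

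Within 1 Mb of the Ereg probe on either side, 32 other genes and transcripts had a probe, and 25 were tested. limma, fitted over all 25975 tested probes with Benjamini-Hochberg adjustment, called 1 of them higher and 0 lower at an adjusted p under 0.05, and 8 of the 25 had an unadjusted p under 0.05. Over all 19397 tested genes, it called 85 (0.438%) higher and 168 (0.866%) lower, and 1753 (9.04%) had an unadjusted p under 0.05. The gene called was Cxcl5, a chemokine gene that attracts neutrophils, whose probe lies at -332.1 kb from that of Ereg. It was already known to be high in these data when the window was set, so nothing is read from its call. Cxcl5 rose from 1301 to 4062 on replicate 1 and from 339 to 1065 on replicate 2, log2 ratios of 1.64 and 1.65 with a limma adjusted p of 1.6e-06. The 7 chemokine genes of the window, grouped after their values were seen, had a median log2 ratio of 0.28 on replicate 1 and 0.95 on replicate 2. The log2 ratios of Cxcl2 were 0.63 and 0.95 (limma adjusted p = 0.0665) and those of Cxcl15 were 0.28 and 1.28 (limma adjusted p = 0.101). The control intensity of Cxcl15 was 87.95 on replicate 1 and 13.63 on replicate 2, both under 100. Ppbp was the 1 chemokine gene of the window with opposite signs, at -0.70 and 0.95. Mthfd2l, an enzyme gene of folate metabolism next to Epgn, had log2 ratios of 0.19 and 0.09. The 18 tested neighbours that are not chemokine genes, Mthfd2l among them, had medians of -0.08 and 0.02. Calls here rested on the setting: 5 chemokine genes were called with the gene length trend removed, and 0 with the authors' rounded series values or with the 4 channels taken as separate samples.

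**Figure D4:**
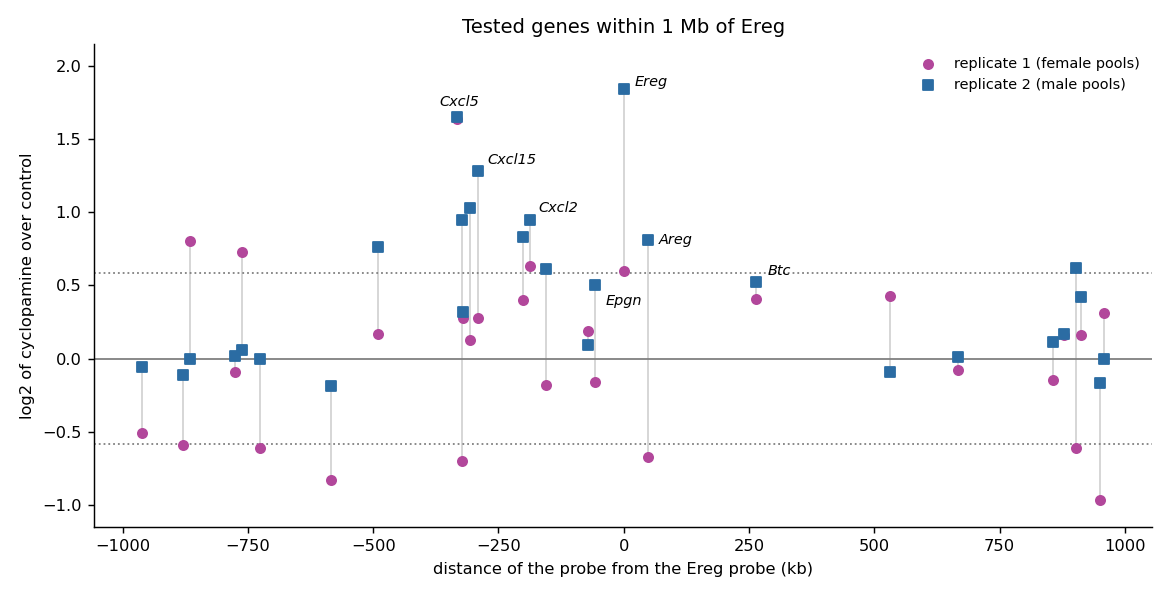
Log2 ratio of cyclopamine over control of the tested genes within 1 Mb of Ereg, on replicate 1 (circles) and replicate 2 (squares), against the distance of their probe from that of Ereg in kb; grey lines join the arrays of a gene and dotted lines mark 1.5-fold. Ereg and Cxcl5 have both arrays above the upper line, and Cxcl2 does too but with a control intensity of 50.7 on replicate 2.

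The other genes of the pathway, in 5 lists of 51 genes, gave no call. Of 49 tested genes, limma called 0 higher and 0 lower, beside the 0.438% and 0.866% of all tested genes. An unadjusted p under 0.05 was found for 1 of the 49, beside 9.04% of all tested genes. That gene was Nrg2, a neuregulin gene, which had 694 for control and 559 for cyclopamine on replicate 1 and 178 and 109 on replicate 2. Its log2 ratios were -0.31 and -0.71 (limma adjusted p = 0.431). No gene of the lists was called under any alternative setting tried. The series values and the 4 channels taken as separate samples called 0 probes of the whole array, so they could call none here. Normexp at offset 50 called only 12 higher and 42 lower over all probes. Erbb4, the fourth receptor of the family, and Nrg3 were not well above background in either group. Egf, the ligand that gave the family its name, had log2 ratios of 0.02 and 0.23 (limma adjusted p = 0.9). Nrg4 had a log2 ratio of 0.28 on replicate 1, and on replicate 2 its control was not well above background.

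All 4 shedding genes were tested. Adam10, a protease that releases betacellulin, had log2 ratios of 0.62 and 0.08. Adam17, the protease that releases most other ligands, had -0.59 and 0.00. The 9 genes that restrain the receptors had a median of 0.37 on replicate 1 and -0.02 on replicate 2. Among them Errfi1, which encodes a feedback inhibitor of EGFR, had 0.28 and 0.44, and Cbl, a ubiquitin ligase that marks EGFR for breakdown, had 0.99 and -0.19. The 15 adaptors and kinases had medians of 0.34 and 0.02. The 18 genes that respond to ERK had medians of -0.08 and 0.17, with 7 higher on both arrays, 2 lower on both and 9 of opposite signs. Dusp4 and Dusp6, phosphatases induced by ERK that act on it in turn, had log2 ratios of 0.45 and 0.40 and of 0.56 and 0.20. Their limma adjusted p values were 0.576 and 0.634. Their means of 0.42 and 0.38 were the highest of this list, and the control of Dusp4 was 82.8 on replicate 2, under 100. The other phosphatase genes of the list, Dusp1 (-0.08 and 0.19) and Dusp5 (-0.01 and 0.20), had opposite signs. The 2 genes lower on both arrays were Jun and Plaur. Ier3 had -0.71 and 0.49. All 9 ERK response genes of opposite signs were, like Ier3, lower on replicate 1 and higher on replicate 2. A p that misses the limit does not show that these genes were unaltered, since each probe has 1 residual degree of freedom.

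**Figure D5:**
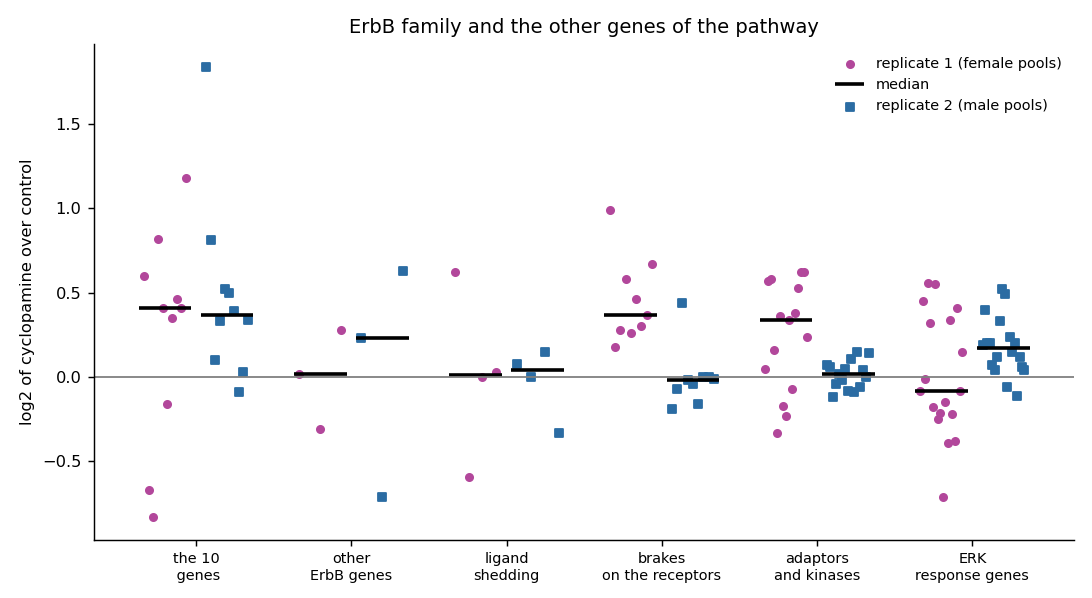
Log2 ratio of cyclopamine over control on replicate 1 (circles) and replicate 2 (squares) for the 10 family genes and the tested genes of the 5 pathway lists, with the median of each array as a black bar (the control of Nrg4 was not well above background on replicate 2). The medians of the receptor brakes are 0.37 and -0.02 and those of the adaptors and kinases 0.34 and 0.02, with the narrower spread on replicate 2.

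The genes most like Ereg were sought by the distance between the pairs of log2 ratios, over the 13659 other genes that were well above background in every channel and over the control limit of 100 on both arrays. The nearest was Trim63, a ubiquitin ligase gene of muscle, with log2 ratios of 0.48 and 1.65 at a distance of 0.23. Ptgs2, which encodes the inducible prostaglandin synthase, had 0.41 and 1.27. Lgr5, a gene of an R-spondin receptor, had 1.01 and 1.32, Pnoc, the nociceptin precursor gene, had 0.75 and 1.14, and Tmprss11g, a serine protease gene, had 0.25 and 1.19. The distance was 0.61 for Ptgs2, 0.66 for Lgr5, 0.72 for Pnoc and 0.75 for Tmprss11g. A search of this kind returns 5 genes at any distance. The likeness rests on 2 arrays, and no other member of the family was among these 5 genes.

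Direct targets of hedgehog signaling were read as a check on the treatment, each by its brightest probe only. Gli1 had log2 ratios of -1.83 and -2.09, Ptch1 of -1.13 and -1.49 and Hhip of -0.31 and -1.99. In the channel of the control pool, 69.6% of the spots on replicate 1 and 65.1% on replicate 2 were well above background. The 75th percentile of intensity in that channel was 3338 and 628. The control spots of the array itself were left out of these values. All 7 urothelial markers were well above background in every channel, with median log2 ratios of 0.16 and 0.13. Their summed intensities were 312300 for control and 343700 for cyclopamine on replicate 1 and 72850 and 78040 on replicate 2. Their mean log2 ratios ranged from -0.02 to 0.47, the highest being that of Trp63, with 0.68 and 0.25 on the arrays. The 6 smooth muscle markers had medians of -0.12 and -0.62, and only Actg2 among them was called (log2 ratios -0.71 and -1.09, limma adjusted p = 0.0251). Of this list 4 genes were lower on both arrays, whereas Myh11 (0.35 and -0.40) and Smtn (0.31 and -0.31) had opposite signs. The 4 macrophage markers had medians of -0.01 and -0.19, the 5 lamina propria and fibroblast markers of 0.73 and -0.48, the 4 nerve and glia markers of -0.10 and 0.10, and the 3 endothelial markers of 0.65 and -0.17, beside 0.41 and 0.36 for the family. The fibroblast list was not uniform. Aldh1a2 (-0.62 and -0.65) and Thy1 (-0.83 and -0.79) passed the study filter as lower, whereas Col1a1, Col1a2 and Pdgfra had 0.73, 0.97 and 1.27 on replicate 1 and -0.48, -0.44 and 0.01 on replicate 2. Of 4 kidney markers, Nphs1, Slc34a1 and Umod were not well above background in either group, while Aqp2 was well above background in every channel, with 55.5 for control and 53.1 for cyclopamine on replicate 1 and 12.1 and 12.7 on replicate 2. The part of cell makeup in the ratios of the family was not tested.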

How the data were processed

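RNA of cyclopamine and control pools was measured on 2 two-colour arrays, and groups and dyes were taken from the labels. The deposited intensity values per spot and channel were made by the authors with the Feature Extraction software of Agilent (per the labels 10.7.3.1, per the file headers 12.2.0.7). Per the file headers they were background-subtracted, detrended and dye-normalised by a linear and LOWESS step. The log10 ratio deposited with them, red over green, was used only to settle direction. In the deposited series table each probe has a score, by its values a signed fold (cyclopamine over control, 1 decimal) already turned for the swap (median 1 on each array). Its correlation with cyclopamine over control was 0.978 on replicate 1 and 0.922 on replicate 2.

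Control and outlier spots (2.89% and 3.15%) were left out, no spot was saturated, and the up to 4 spots of a probe were averaged on the log2 scale. Genes were named through the RefSeq accession for 28328 of 39429 probes. limma 3.58.1 in R 4.3.3 (lmFit, eBayes) tested 25975 probes with Benjamini-Hochberg adjustment. Each probe had 1 residual degree of freedom, so its variance came largely from the prior over all probes, and 2 arrays limit the precision. The labels do not say how the pools of the arrays relate beyond sex. The p-values rest on the spread between these arrays only, pooled largely over all probes. The standard error was 0.23 for Cxcl5 and 0.25 for Ppbp, although their SDs between arrays were 0.01 and 1.16. Members, gene lists and the window around Ereg were chosen with earlier results of these data known. Named were the 10 members, Erbb4, Egf, Gli1, Ptch1, Hhip, the 5 genes nearest to Ereg and listed or neighbouring genes past a limit, and further list genes, markers and neighbours were picked after their values were seen. Alternatives were normexp background correction (offset 50 or 10), the series values, all probes of a gene, other limits and filters, a further loess step, outlier spots kept, channels as separate samples and each array alone. Removal of the gene length trend was added after seeing the data. No column was left without a sample.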

Additional observations from a re-analysis of the deposited data

Results flagged for a closer look

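Areg, Hbegf, Epgn and Egfr had opposite signs on the array of the female pools and the array of the male pools. The log2 ratio on the female array minus that on the male array was -1.48 for Areg, -0.94 for Hbegf, -0.66 for Epgn and 0.55 for Egfr. With 1 array per sex this difference was not tested, and sex, pool and dye orientation cannot be told apart. Over all tested genes, 42.4% had opposite signs. With the gene length trend removed, Epgn had 0.03 and 0.52 and no longer met this condition.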

How the results depend on the processing

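Over 7 alternatives with both arrays, 67 of 70 member means moved by less than the SD between the arrays; the exceptions were all of Nrg1, from 0.37 to 0.31, 0.34 and 0.33, whose SD was 0.02. This count says little, since the SD it is set against was 0.88 for Ereg and 1.05 for Areg. The mean of all tested probes also cannot move a member with a single probe. The Ereg mean ranged from 1.12 to 1.24, and from 0.60 to 1.84 with either array left out. The median of the member means was 0.30, and 0.36 to 0.41 with either array left out. The count of members past the study filter as higher fell from 1 to 0 with normexp correction at offset 50 and at offset 10, with a control limit of 200 and with a fold limit of 2, each of which removed Ereg. Each array alone passed 2 to 3 members as higher (Ereg and Areg on replicate 2, and Ereg, Tgfa and Erbb3 on replicate 1) and 0 to 2 as lower (Areg and Hbegf on replicate 1). Over all probes limma called 118 higher and 200 lower. Normexp at offset 50 gave 12 and 42, at offset 10 it gave 52 and 123, and the series values and the 4 channels taken as separate samples without a replicate block gave 0 and 0. Without the filter on dim probes 216 were higher, and with the gene length trend removed 255. Among the neighbours of Ereg, the count called higher was 1, and 0 with the series values and with the separate channels, 2 with the mean of all tested probes and with a prior that follows intensity, and 5 with the gene length trend removed. Causes of these shifts were not tested. The main fit is itself paired, since each array gives the ratio of a cyclopamine to a control pool, and the fit of separate channels is its unpaired form.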
